A study of Rattus norvegicus with 4 samples.

Results

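The 9 enzymes that turn farnesyl diphosphate into squalene and squalene into cholesterol were Fdft1, Sqle, Lss, Cyp51, Tm7sf2, Msmo1, Nsdhl, Ebp and Dhcr7. They were chosen by symbol, and all 9 were found, each on 1 row, among the 14137 gene identifiers of the deposited table. Their transcripts were counted by RNA-seq in NRVMs, neonatal ventricular heart muscle cells of the rat kept in primary culture, a preparation that can also hold other heart cells. Crat hairpin cultures, which the labels call KO, received lentivirus with a short hairpin RNA against Crat. Control hairpin cultures, which the labels call WT, received lentivirus with a control hairpin, so both groups carry a viral vector. All cells were taken at day 5, and there were 2 libraries per group. The sources used here give neither the hairpin sequences nor the number of cultures, so p-values measure the spread between these libraries, which may be technical.

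Cholesterol is built from acetyl-CoA through mevalonate and farnesyl diphosphate. Joining farnesyl units into squalene is the branch point that commits carbon to sterols. Squalene is then oxidised and folded into lanosterol, stripped of its extra methyl groups, and reduced and isomerised to cholesterol in the membrane of the endoplasmic reticulum. Genes of this route are classic targets of SREBP2, a membrane-bound transcription factor that is released when sterol in that membrane is low. Crat encodes carnitine acetyltransferase, a mitochondrial enzyme that moves acetyl groups between carnitine and coenzyme A.

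All 9 enzymes had lower transcript levels in both Crat hairpin libraries than in either control hairpin library. Of all genes tested, 21.7% showed that pattern. Mean levels in Crat hairpin cultures ran from 34.0% of the control mean for Tm7sf2 to 72.0% for Dhcr7. Of the 9, 7 fell and 0 rose at an adjusted p below 0.05 (limma, Benjamini-Hochberg over 12949 genes), where 6.36% of all genes tested fell and 12.6% rose. The exceptions were Ebp and Dhcr7. The median log2 fold change of the 9 was -0.76, and that of all genes tested was 0.15. Summed over the 9, Crat hairpin replicates 1 and 2 held 824 and 786 RPM (a gene's reads relative to all reads of its library, without regard to gene length), against 1455 and 1399 RPM in control hairpin replicates 1 and 2. The authors' deposited table gave an adjusted p below 0.05 to the same 7 genes, where 5.6% of its genes were lower by that rule.

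**Figure D1:**
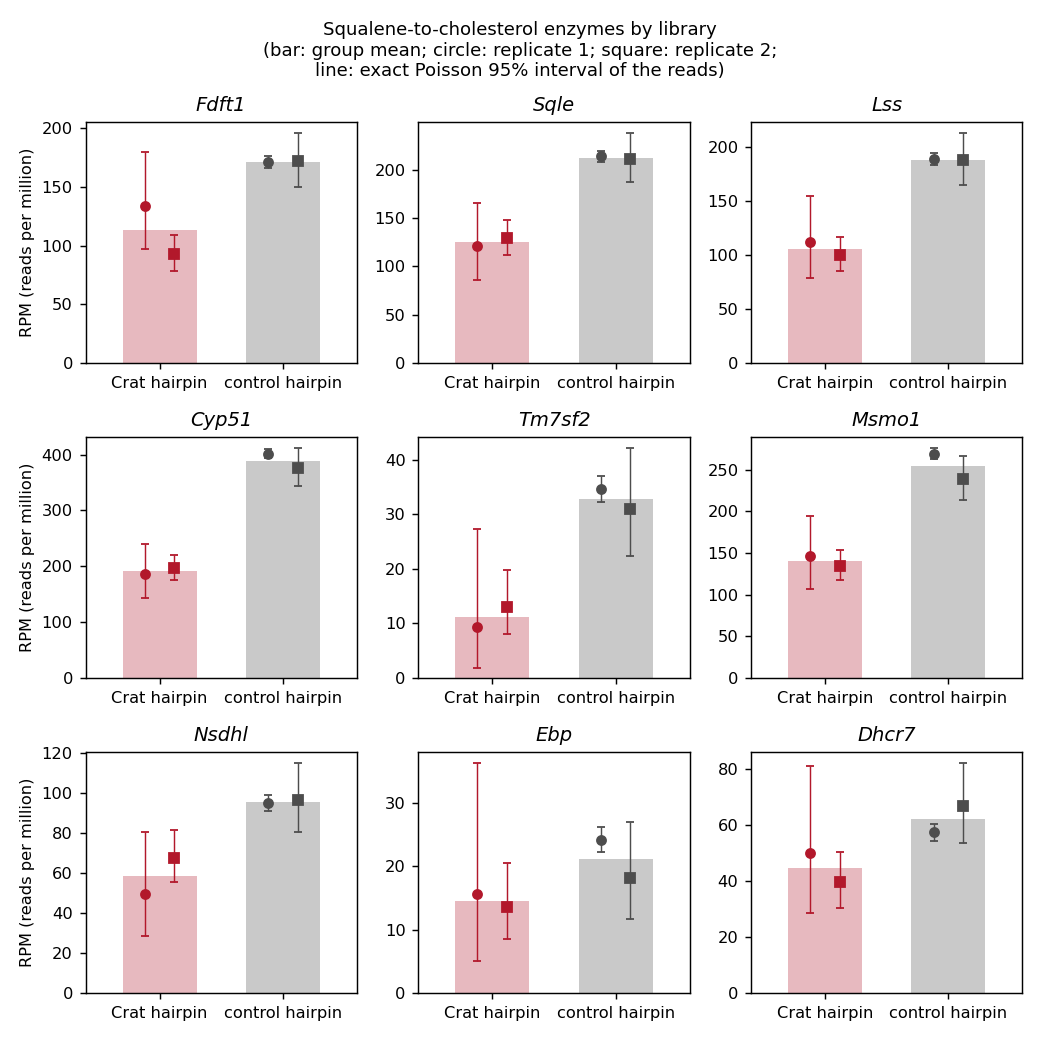
RPM of each enzyme in the 2 Crat hairpin libraries (red, left) and the 2 control hairpin libraries (grey, right), in pathway order. Bars are group means and lines are exact Poisson 95% intervals of the reads, which cover counting error only. In every panel both red points lie below both grey points, with the narrowest gap for Ebp at 2.61 RPM and the widest for Cyp51 at 180 RPM.

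Depth was uneven and limits what follows. Crat hairpin replicates 1 and 2 held 321516 and 1622998 reads and control hairpin replicates 1 and 2 held 23680064 and 1321735, so a read was worth 3.11 and 0.616 RPM in the Crat hairpin libraries and 0.0422 and 0.757 RPM in the controls. Crat itself stood at 24.9 and 19.7 RPM in Crat hairpin libraries, against 148 and 156 RPM in control hairpin libraries, a log2 fold change of -2.72 ± 0.19 (SE; limma adjusted p = 7.3e-06). Cell type markers moved too, beside 6.36% of all genes tested that fell in limma and 12.6% that rose. Of 12 cardiomyocyte markers 10 fell and 1 rose, with a summed level of 13884 and 14299 RPM in Crat hairpin libraries and 33369 and 33893 RPM in controls. Of 8 markers of smooth muscle and pericytes 6 were lower and 1 higher, with a sum of 1900 and 1811 RPM against 5225 and 5334 RPM in controls. Of 10 fibroblast markers 5 were lower and 3 higher, with a sum of 16898 and 17253 RPM against 22965 and 23947 RPM in controls. Ttn and Pln of the cardiomyocyte list were not found by symbol. No other gene of the cardiomyocyte and fibroblast lists was without a read in a library. Endothelial markers, with 1 lower and 1 higher of 5, summed to 68.4 and 60.4 RPM against 52.9 and 62.8 RPM in controls. Leukocyte markers summed to 46.7 and 49.3 RPM against 44.0 and 43.9 RPM in controls. Of 7 tested leukocyte markers 0 passed in limma, in edgeR or in DESeq2, and 0 had an unadjusted limma p below 0.05. In Crat hairpin replicate 1 the pericyte marker Rgs5, the endothelial markers Cdh5 and Vwf and the leukocyte markers Csf1r and Cd3e had no read. Fewer cells of a type and less RNA per cell cannot be told apart in bulk RNA, and the part of these shifts in the enzyme results was not tested.

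Promoters are shown because these genes are known to share regulators that bind close to the start. RefSeq holds a promoter, 250 bases before to 50 bases after the annotated start in build GRCr8, for 7 of the 9 genes matched by symbol, all but Fdft1 and Sqle. Both strands were searched for the sterol response element bound by SREBP (TCACNCCAC), the NF-Y box (CCAAT) and the GC box bound by Sp1-type factors (GGGCGG). NF-Y and Sp1 are textbook partners of SREBP at sterol gene promoters. The exact sterol response element letters were in 0 of the 7 windows and in 1.12% of all 33469 promoters of the table. The NF-Y box was in 5 of the 7 (37.5% of all promoters) and the GC box in 6 of the 7 (33.1% of all promoters). Matches of different motifs did not overlap in the 7 windows, and 1 pair of GC boxes overlapped, in Dhcr7. The promoters of 4 genes follow, 5′ to 3′ on the gene's strand, with NF-Y and GC boxes of either strand in capitals. Cyp51 (chr4:30991443-30991742, + strand) had the lowest adjusted p, Tm7sf2 (chr1:212789492-212789791, - strand) the largest fold change, Msmo1 (chr16:29746863-29747162, + strand) held both motifs 3 times, and Dhcr7 (chr1:208444184-208444483, + strand) was an enzyme that did not pass.
Cyp51: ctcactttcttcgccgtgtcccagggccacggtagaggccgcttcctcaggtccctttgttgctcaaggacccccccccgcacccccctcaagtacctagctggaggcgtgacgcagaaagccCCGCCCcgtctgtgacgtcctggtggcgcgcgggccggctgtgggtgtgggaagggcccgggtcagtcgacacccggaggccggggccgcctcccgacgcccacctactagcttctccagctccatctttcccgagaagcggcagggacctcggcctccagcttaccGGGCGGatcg
Tm7sf2: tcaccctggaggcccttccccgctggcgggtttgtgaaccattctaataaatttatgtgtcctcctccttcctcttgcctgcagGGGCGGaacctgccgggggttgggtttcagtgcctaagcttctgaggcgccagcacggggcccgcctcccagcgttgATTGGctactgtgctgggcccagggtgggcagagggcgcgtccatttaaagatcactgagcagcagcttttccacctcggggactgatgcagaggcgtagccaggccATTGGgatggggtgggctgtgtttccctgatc
Msmo1: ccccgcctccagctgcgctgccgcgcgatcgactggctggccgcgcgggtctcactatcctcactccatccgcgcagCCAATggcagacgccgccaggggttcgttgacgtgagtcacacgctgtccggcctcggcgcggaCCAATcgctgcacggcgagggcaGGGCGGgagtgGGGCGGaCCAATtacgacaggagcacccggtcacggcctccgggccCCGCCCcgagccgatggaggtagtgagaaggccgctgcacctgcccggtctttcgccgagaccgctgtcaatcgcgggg
Dhcr7: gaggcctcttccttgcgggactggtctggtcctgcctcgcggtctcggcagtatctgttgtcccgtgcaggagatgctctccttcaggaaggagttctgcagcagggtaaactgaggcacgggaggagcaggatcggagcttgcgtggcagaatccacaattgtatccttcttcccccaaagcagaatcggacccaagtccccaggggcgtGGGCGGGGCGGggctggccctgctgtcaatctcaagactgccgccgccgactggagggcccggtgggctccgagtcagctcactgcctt
Cyp51 and Dhcr7 held GC boxes and no NF-Y box, and Nsdhl held 5 NF-Y boxes and no GC box. Base composition was 57.3% to 71.0% G and C over the 7 windows, against a median of 51.7% over all promoters. A match is a run of letters and not a measured binding site.

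**Figure D2:**
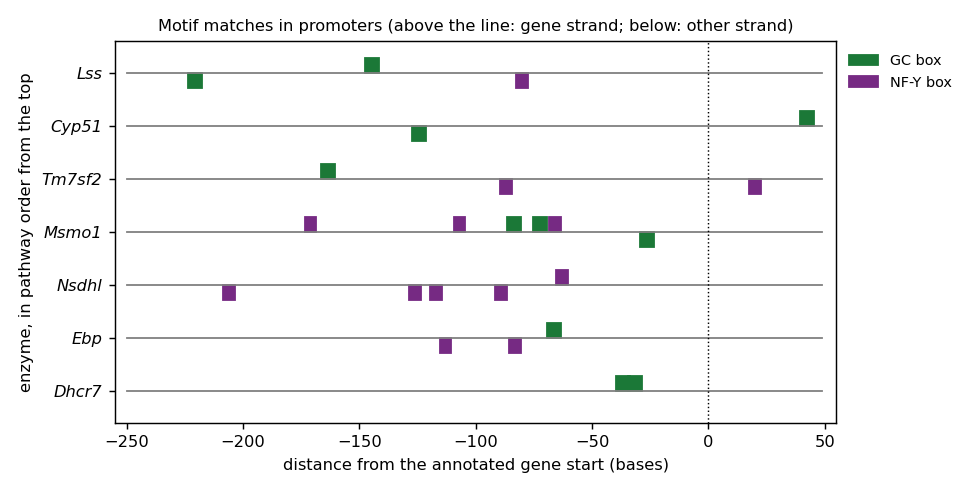
Positions of NF-Y boxes (purple) and GC boxes (green) in the 7 promoters, as distance in bases from the annotated gene start at 0. Marks above a line are on the gene's strand and marks below it on the other strand. Each of the 5 genes with an NF-Y box has one whose upstream end lies between -89 (Tm7sf2) and -65 (Nsdhl). These bounds were read from the matches themselves, and the share of all promoters with a box there was not computed. A shared position was therefore not tested.

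The entry to the sterol branch was lower at each of its 3 steps. Fdft1, squalene synthase, which joins farnesyl diphosphate units into squalene, had 134 and 93.0 RPM in Crat hairpin libraries, against 171 and 172 RPM in control hairpin libraries. Both Crat hairpin values were below both controls, but they lay 1.44-fold apart, with 43 and 151 reads behind them, whereas the controls were nearly equal. The exact Poisson interval of Crat hairpin replicate 1, from 96.8 to 180 RPM, spanned both control values. The Fdft1 log2 fold change was -0.62 ± 0.17 (SE, 2 libraries against 2; limma adjusted p = 0.0303). It was -0.36 without Crat hairpin replicate 2 and -0.88 without Crat hairpin replicate 1, -0.97 in edgeR, and the call was lost when no low genes were filtered out (adjusted p = 0.0544).

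Sqle, squalene epoxidase, is an oxygen-dependent and rate-limiting enzyme of the sterol branch. It had 121 and 129 RPM in Crat hairpin libraries, against 214 and 211 RPM in control hairpin libraries. Replicates lay close together in both groups, and the log2 fold change was -0.76 ± 0.11 (limma adjusted p = 0.00116). Lss, lanosterol synthase, folds epoxidised squalene into the sterol ring system. Its levels were 112 and 99.8 RPM in Crat hairpin libraries and 189 and 188 RPM in control hairpin libraries, a log2 fold change of -0.83 ± 0.12 (limma adjusted p = 0.00123). For Sqle and Lss the exact Poisson intervals of all Crat hairpin libraries ended below the control values, at 166 RPM for Sqle and 155 RPM for Lss in the shallow Crat hairpin replicate 1.

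The 4 enzymes that demethylate and reduce lanosterol included the most precise and the largest falls. Cyp51, the cytochrome P450 that starts the removal of a methyl group from lanosterol, had 187 and 197 RPM in Crat hairpin libraries, against 401 and 377 RPM in control hairpin libraries. Its log2 fold change was -1.02 ± 0.09, and its adjusted p of 5.5e-05 (limma) was the lowest of the 9. Its promoter, shown above, held 2 GC boxes.

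Tm7sf2, a sterol reductase that acts on the product of Cyp51, had 9.33 and 12.9 RPM in Crat hairpin libraries, against 34.5 and 31.0 RPM in control hairpin libraries. These Crat hairpin values rest on 3 and 21 reads, and the exact Poisson interval of replicate 1 ran from 1.92 to 27.3 RPM. That interval ended below both control values but overlapped the interval of control hairpin replicate 2, which started at 22.3 RPM. The Tm7sf2 log2 fold change was -1.49 ± 0.31 (limma adjusted p = 0.00828), and 2.97% of all genes tested had a lower one.

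Msmo1, the monooxygenase that oxidises the methyl groups next removed, had 146 and 134 RPM in Crat hairpin libraries, against 269 and 239 RPM in control hairpin libraries. Its log2 fold change was -0.85 ± 0.11 (limma adjusted p = 6.5e-04). Nsdhl, the dehydrogenase that acts after Msmo1 in the same demethylation, had 49.8 and 67.8 RPM in Crat hairpin libraries, against 94.9 and 96.8 RPM in control hairpin libraries. The Crat hairpin libraries of Nsdhl differed 1.36-fold, with 16 and 110 reads, and its log2 fold change was -0.71 ± 0.18 (limma adjusted p = 0.0237). Both groups of both genes were apart, by 92.9 RPM for Msmo1 and 27.2 RPM for Nsdhl.

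The enzymes of the last steps showed the smallest differences and did not pass. Ebp, the sterol isomerase that is also known as a binding protein for the drug emopamil, had 15.6 and 13.6 RPM in Crat hairpin libraries, against 24.2 and 18.2 RPM in control hairpin libraries. The Ebp values rest on 5 and 22 reads in Crat hairpin libraries and on 572 and 24 in controls, and its log2 fold change of -0.50 had a 95% interval from -1.21 to 0.21 (limma adjusted p = 0.322). Dhcr7, the reductase whose product is cholesterol and whose substrate is the precursor of vitamin D, had 49.8 and 39.4 RPM in Crat hairpin libraries, against 57.3 and 66.6 RPM in control hairpin libraries. Its log2 fold change of -0.47 had an unadjusted 95% interval from -0.92 to -0.02 (limma adjusted p = 0.143). Neither difference passed this test at this depth, and both intervals include falls as large as the median of the 9.

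**Figure D3:**
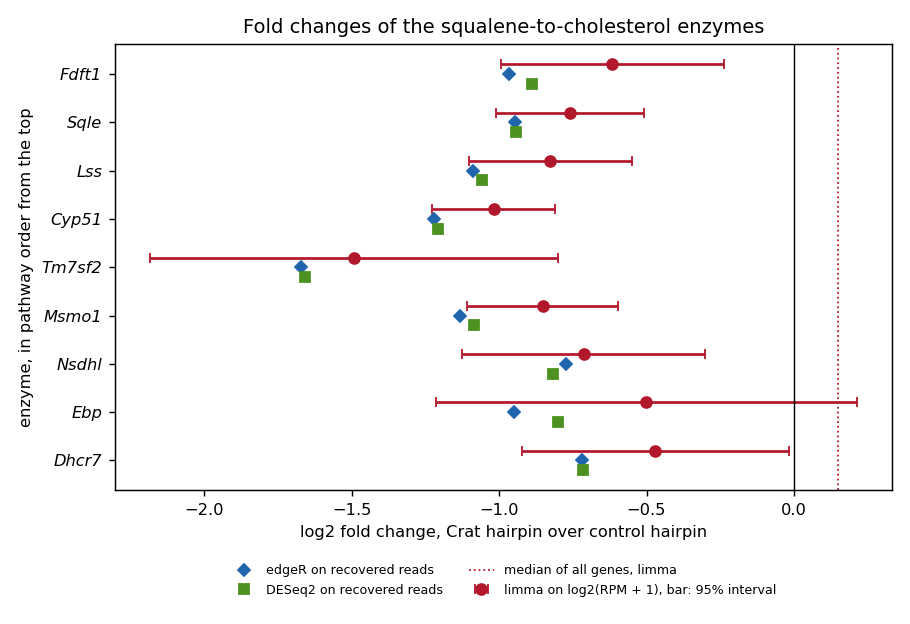
Log2 fold change of each enzyme, Crat hairpin over control hairpin, by limma with its unadjusted 95% interval (red), edgeR (blue) and DESeq2 (green). All points lie below 0, and the limma interval of Ebp is the one that crosses 0. The dotted line marks the median of all genes at 0.15.

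Fits to the recovered reads gave larger falls, with a median of the 9 of -0.97 in edgeR and -0.94 in DESeq2. That median was -0.95 in limma after median-of-ratios scaling. In edgeR all 9 enzymes were lower (15.9% of all genes tested were lower by that rule), with the weakest evidence for Ebp (log2 fold change -0.95, adjusted p = 0.00673) and Dhcr7 (-0.72, adjusted p = 8.1e-04). In DESeq2 the same 7 as in limma were lower (6.68% of all genes tested), while Ebp at -0.80 and Dhcr7 at -0.72 (adjusted p = 0.166) did not pass. The centre of the fits differs. The median over all genes was 0.15 for deposited RPM and -0.03 after median-of-ratios scaling, a shift of -0.18. With that scaling 1254 genes fell and 1044 rose (9.68% and 8.06% of all genes tested), so 54.6% of the called genes were lower, where 823 fell and 1631 rose on deposited RPM and 33.5% were lower. Of the 9 enzymes 8 fell with that scaling, Dhcr7 included (adjusted p = 0.0492). The direction of all 9 was down in the 16 alternatives tried.

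For 7 of the 9 the 95% interval of the log2 fold change included the median of -0.76, and the exceptions were Cyp51 and Tm7sf2, whose falls were larger. Tm7sf2 made up 1.13% and 1.65% of the summed RPM of the 9 in Crat hairpin libraries, against 2.37% and 2.22% in control hairpin libraries. The share of Cyp51 was also lower in both Crat hairpin libraries than in either control. Dhcr7 went the other way, with 6.04% and 5.02% in Crat hairpin libraries and 3.94% and 4.76% in control hairpin libraries. The share of Ebp was likewise higher, at 1.89% and 1.72% in Crat hairpin libraries and 1.66% and 1.30% in control hairpin libraries. In Crat hairpin replicate 1 the shares of Tm7sf2, Dhcr7 and Ebp rest on 3, 16 and 5 of 265 reads. The counting error of these shares was not tested. Shares of Fdft1, Sqle, Lss, Msmo1 and Nsdhl overlapped between the groups. As RPM is not divided by length, these shares compare a gene between libraries and not genes with each other. Differences between the enzymes were not tested.

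Each library was left out in turn. Without Crat hairpin replicate 1, the shallowest library, 8 of 9 enzymes fell, Dhcr7 included at -0.63 (limma adjusted p = 0.0108), where 10.3% of all genes tested were lower. Without Crat hairpin replicate 2 the same 7 fell, where 20.3% of all genes tested were lower. Both shares are above the 6.36% with all libraries. Without control hairpin replicate 1 only Cyp51 passed, at -0.97 (adjusted p = 0.0171), and without control hairpin replicate 2 only Cyp51 at -1.06 (adjusted p = 0.0120) and Msmo1 at -0.94 (adjusted p = 0.0352), where 1.46% and 1.35% of all genes tested were lower without control hairpin replicates 1 and 2. In those fits the lone library of a group is assumed to vary like the other group. The Sqle log2 fold change was -0.75 and -0.77 (adjusted p = 0.0870 and 0.0807) without control hairpin replicates 1 and 2.

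**Figure D4:**
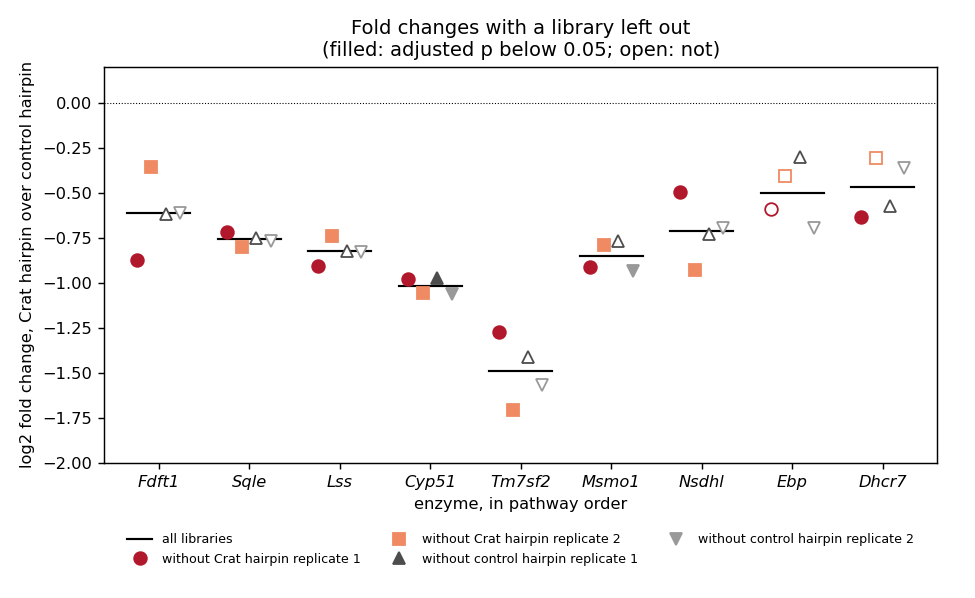
Log2 fold change of each enzyme with each library left out in turn (symbols) and with all libraries (black lines), from limma. Filled symbols have an adjusted p below 0.05 and open symbols do not. All symbols lie below 0, and those of Fdft1 reach -0.88 and -0.36 when Crat hairpin replicates 1 and 2 are dropped.

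Upstream of squalene, 7 of 8 mevalonate pathway genes fell in limma, where 6.36% of all genes tested fell. The median log2 fold change of the 8 was -0.99. Hmgcs1, which makes HMG-CoA, had 236 and 231 RPM in Crat hairpin libraries, against 578 and 561 RPM in control hairpin libraries (log2 fold change -1.28). The kinase Mvk fell by 1.65 on the log2 scale (-2.26 without Crat hairpin replicate 2 and -1.05 without Crat hairpin replicate 1), the isomerase Idi1 by 1.10, and Fdps, which makes the farnesyl diphosphate that Fdft1 uses, by 0.995. Mvk lost the call without control hairpin replicate 1 or 2 (adjusted p = 0.195 and 0.346), and Idi1 without control hairpin replicate 2 (adjusted p = 0.0572). Within the sterol stretch itself, 3 other genes were tested, of which 1 fell and 0 rose in limma. Their median log2 fold change was -0.80. All 3 were lower in both Crat hairpin libraries than in either control hairpin library, a pattern that 21.7% of all genes tested showed. The 2 that did not pass were the scaffold Erg28, with a log2 fold change of -0.43 (limma adjusted p = 0.196), and the reductase Hsd17b7, with -0.80 (limma adjusted p = 0.146). Lbr, a reductase with the same activity as Tm7sf2, and Sc5d were not found by symbol and so were not analysed.

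Genes that use farnesyl diphosphate or its products outside the sterol branch had a median log2 fold change of -0.16 over 9 genes. Of these, 2 rose on deposited RPM, where 12.6% of all genes tested rose, and neither kept the call after median-of-ratios scaling. They were Coq2, of ubiquinone synthesis, at 1.29 (adjusted p = 0.0325, and 0.0612 after that scaling) and the prenyltransferase subunit Pggt1b at 0.91 (adjusted p = 0.0345, and 0.0846 after that scaling). Both also lost the call in DESeq2 (adjusted p = 0.153 and 0.369) and without control hairpin replicate 1 (adjusted p = 0.359 and 0.305) or 2 (adjusted p = 0.326 and 0.405).

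Among genes of SREBP2 control and sterol uptake, Insig1, the sterol sensor partner that is itself an SREBP target, had 171 and 198 RPM in Crat hairpin libraries, against 341 and 337 RPM in control hairpin libraries. It fell by 0.88 on the log2 scale (limma adjusted p = 3.0e-04). Of the 12 tested genes of that list 2 fell and 0 rose in limma, where 6.36% of all genes tested fell and 12.6% rose. The log2 fold change was below 0 for 5 of the 12. The median of the 12 was 0.13, and -0.06 after median-of-ratios scaling. Srebf2, which encodes SREBP2, had -0.43 (limma adjusted p = 0.0700) and passed in DESeq2 (adjusted p = 0.0146) and in edgeR (adjusted p = 2.2e-07).

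Of 9 fatty acid genes of the sister factor SREBP1, 4 fell and 1 rose, and 5 fell and 0 rose after median-of-ratios scaling. Over all genes tested 6.36% fell and 12.6% rose, and 9.68% fell and 8.06% rose after that scaling. Scd, a desaturase, fell by 1.47 on the log2 scale, Elovl6, an elongase, by 0.88, Acly, which makes cytosolic acetyl-CoA from citrate, by 0.63 and the desaturase Fads2 by 0.49. Elovl6, Acly and Fads2 lost the call without control hairpin replicate 1 (adjusted p = 0.309, 0.164 and 0.328) or 2 (adjusted p = 0.574, 0.130 and 0.392). Elovl6 also lost it in DESeq2 (adjusted p = 0.0584), in the authors' deposited table (adjusted p = 0.0762) and without the filter on low values (adjusted p = 0.0665). Fasn, fatty acid synthase, was the member that rose, with 423 and 447 RPM in Crat hairpin libraries against 315 and 328 RPM in control hairpin libraries, and it did not pass in DESeq2 (adjusted p = 0.194).

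Of 11 genes that use up or export cholesterol 5 rose, and 4 rose after median-of-ratios scaling. Over all genes tested 12.6% rose, and 8.06% after that scaling. None fell in limma, edgeR or DESeq2, or at an unadjusted limma p below 0.05. Over all genes tested 6.36% fell in limma, 15.9% in edgeR and 6.68% in DESeq2. With 11 genes, a count of 0 beside such shares says little about this list. Cyp27a1, a mitochondrial sterol hydroxylase, had 211 and 256 RPM in Crat hairpin libraries, against 19.4 and 21.9 RPM in control hairpin libraries. Its log2 fold change was 3.43, beside 2.64 for the oxysterol hydroxylase Cyp7b1, 2.07 for the dehydrogenase Hsd3b7 and 2.07 for Nr1h2, which encodes the sterol receptor LXR beta. Cyp7b1 lost the call without control hairpin replicate 2 (adjusted p = 0.0525). The cholesterol export transporters did not pass. Abca1 had 74.6 and 85.0 RPM in Crat hairpin libraries, against 79.5 and 80.2 RPM in control hairpin libraries, and its 95% interval ran from -0.35 to 0.34 on the log2 scale. Abcg1 had 40.4 and 40.0 RPM in Crat hairpin libraries, against 34.1 and 46.9 RPM in control hairpin libraries, with an interval from -0.51 to 0.52.

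**Figure D5:**
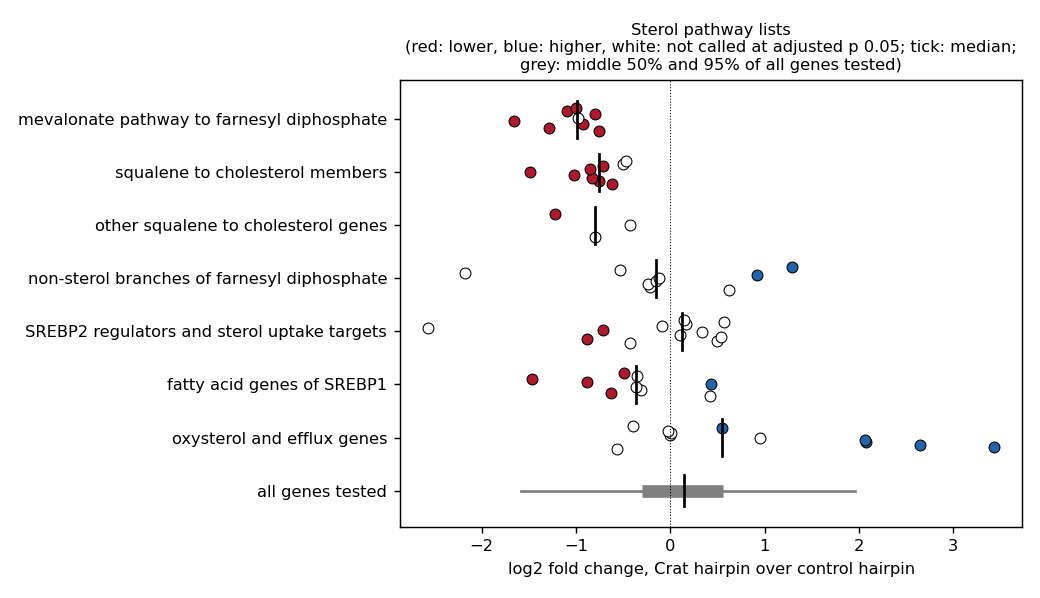
Log2 fold changes of the genes of 7 sterol and lipid lists, Crat hairpin over control hairpin, with limma calls in red (lower), blue (higher) or white (not called), a tick at each list's median, and the middle 50% and 95% of all genes tested in grey. The 9 enzymes sit between -1.49 and -0.47, left of the grey median of 0.15, as do the 8 mevalonate genes between -1.65 and -0.76.

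Among 7236 other genes with a symbol whose mean reached 20 RPM, the 5 whose centred log2 profile over the 4 libraries lay closest to the mean profile of the 9 enzymes were Tpm1, Azin1, Skp1, Fbln5 and Acat2. Their Euclidean distances ran from 0.03 to 0.07 log2 units, against 0.10 for Sqle and 0.76 for Tm7sf2 within the group. Tpm1, a tropomyosin of muscle, had 1683 and 1618 RPM in Crat hairpin libraries against 2978 and 2873 RPM in control hairpin libraries. Acat2, cytosolic thiolase, belongs to the mevalonate list. With 4 libraries, such likeness says little beyond a similar difference between the groups.

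The counting of related sequences could affect some values. In RefSeq GRCr8, which is not the build of the files, the noncoding gene LOC134482130 overlaps Fdft1, and the pseudogenes Cyp51a1-ps1 and Nsdhl-ps1 share names with Cyp51 and Nsdhl. The sources used here do not say whether reads were assigned by strand, so reads of those genes may be shared.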

How the data were processed

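The labels list 4 RNA-seq libraries, made from total RNA and sequenced on an Illumina HiSeq, per the labels' protocols. Kallisto, DESeq2 and the build mRatBN7.2 appear in the submitters' processing notes, without tool versions. The authors deposited 1 table with a signal per library headed TPM, group means, p-values and adjusted p-values, per the file headers. Each library signal is a whole multiple of a fixed step (100% of values within 0.02 of a read), so it is RPM and reads could be recovered. Of 14137 gene identifiers, 140 stand on several rows with equal values and were used once.

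The 12949 genes whose mean reached 1 RPM were fitted as log2(RPM + 1) by limma 3.58.1 (R 4.3.3) using a variance trend and Benjamini-Hochberg adjustment over all of them, two-sided, at 0.05. The design assumed TPM, and the same test was kept for RPM. Fold changes on this scale understate those of low genes. edgeR 4.0.16 and DESeq2 1.42.0, both tests made for counts, were run on the recovered reads. The fits were also run on simulated reads with as many rises as falls. The outcome is not given here, and no result rests on it. Replicate pairs differed beyond counting error (chi-square per degree of freedom 1.29 for Crat hairpin and 1.47 for control hairpin), so each library counts once.

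The members and lists were chosen with earlier results of these data known. Named genes are the 9 enzymes, Crat, up to 4 genes per other list by size of change among those that passed, or 2 by mean where fewer than 2 passed, and the 5 nearest profiles. Hsd17b7, Srebf2, Fasn, Abca1, Abcg1 and the markers without a read were added after their values were seen. Alternatives were other pseudocounts, filters, scalings and variance priors, a replicate block, and each library left out. Results for 2 genes of the other lists are not reported here, although the lists' counts and medians include them.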

Additional observations from a re-analysis of the deposited data

How the results depend on the processing

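All 9 enzymes stayed below 0 in the 16 alternatives, and Crat and the genes named by rule kept their direction. Genes added after their values were seen were not part of that check. The median of the SREBP2 list changed sign, from 0.13 to -0.06 after median-of-ratios scaling. The balance of called genes moved too, with 33.5% lower on deposited RPM and 54.6% lower after that scaling. Without the variance trend 345 genes changed, against 2454, and 0 of the 9 enzymes passed in limma, although 6 had an unadjusted p below 0.05 (9 passed in edgeR and 7 in DESeq2). Their adjusted p then ran from 0.0700 to 0.259. In that setting the counts of lower genes were also 0 in the mevalonate list, the other sterol genes, the SREBP2 list and the SREBP1 list. In edgeR 3839 genes changed, in DESeq2 1613, and in the authors' deposited values 1486. In edgeR 3 of the other sterol genes, 1 gene of the non-sterol branches and 4 of the SREBP2 list were lower. Over all genes tested 15.9% were lower in edgeR. With a library left out, 594 to 6218 genes changed, 1 to 8 of the 9 enzymes were lower, 2 to 8 mevalonate genes, 1 to 3 other sterol genes, 0 to 2 non-sterol branch genes, 1 to 4 of the SREBP2 list and 1 to 6 of the SREBP1 list. The share of all genes tested that were lower also differed widely between the fits with a library left out, as given above. The counts of lower genes in the lists are to be read beside it. The cause of these shifts was not tested.

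With a replicate block 2596 genes changed and the same 7 enzymes were lower. It changed no call on an enzyme or on Crat. Same-numbered libraries did not deviate together (correlation 0.02 over 4325 genes), so the numbers were not taken as pairs. Crat kept its call in every alternative. Depth limits Tm7sf2 and Ebp most, with 3 and 5 reads in Crat hairpin replicate 1.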
